A study of Mus musculus with 18 samples.

Results

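The genes described here are 10 transcription and chromatin factors known from naive pluripotency: Nanog, Klf2, Klf4, Klf5, Tfcp2l1, Zfp42, Tbx3, Prdm14, Nr0b1 and Dppa3. They were chosen as a group, with earlier results of these data known, and were looked up by gene symbol in the expression tables of 3 mouse stem cell types. All 10 were in the table of embryonic stem cells (ESCs), among 13578 genes. The table of trophoblast stem cells (TSCs) held 8 of them among 13518 genes and lacked Prdm14 and Dppa3. In extraembryonic endoderm (XEN) cells 5 were present among 11538 genes, namely Klf2, Klf4, Klf5, Tfcp2l1 and Tbx3. Each gene present also passed the filter on low values, and the tables together held 14804 genes.

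The study asked how these stem cells respond transcriptionally to low oxygen. RNA of each cell type was sequenced from cells kept in normoxia and from cells on day 2 and day 7 of hypoxia, which gave 18 libraries, 2 biological replicates for each of 9 conditions. The ESCs were wild-type E14 cells, grown without feeder cells on gelatin in serum with leukemia inhibitory factor (LIF), so they were not in the inhibitor medium that gives the most uniform naive cells. The TSCs were grown on feeder cells and the XEN cells on gelatin in medium partly conditioned on fibroblasts. The labels name no line for the TSCs and XEN cells. Day 2 and day 7 were compared with the same 2 normoxic libraries, and day 7 with the same day 2 libraries. The comparisons within a cell type are thus not independent. No normoxic library was labelled as day 2 or day 7, so time in hypoxia was not separated from time in culture.

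Naive pluripotency is the state of the preimplantation epiblast and of mouse ESCs, in which a cell can still form every embryonic lineage. In mouse ESCs it is held by a network of factors downstream of LIF and STAT3, of WNT signalling through relief of TCF7L1 repression, and of low ERK activity. Cells that move on to the formative and primed states shut most of this network down, whereas several of its members also act outside the epiblast, in trophoblast, endoderm and adult tissues.

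Values are TPM, which are reads per gene divided by gene length and scaled to 1000000 per library. The deposited TPM had been divided by the distance from start to end of a gene, with its introns, so levels of different genes are compared here only after recomputing them with exon length. The libraries held between 35592641 and 75204029 recovered reads. A member was called changed where the fold change exceeded 1.5 and the limma p, after Benjamini-Hochberg adjustment across the whole table, was no more than 0.1, the limits used in the study. The test is not that of the study, whose edgeR test at these limits called more genes in each cell type on both days. A gene not called here is thus not shown to be unchanged. Fold changes are log2 of TPM plus 0.5, with their standard error (SE).

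The cells carried the markers of their labels. Pou5f1, the core pluripotency factor Oct4, lay between 1568 and 2009 TPM in ESC libraries and between 0.842 and 1.48 in XEN cell libraries, and it was not in the TSC table. Cdx2, which specifies trophoblast, lay between 35.1 and 169 TPM in TSCs and reached at most 4.19 in ESCs. Its TSC mean was 128 TPM on day 2 and 37.7 on day 7, where it was called lower (log2 fold change -1.68, limma adjusted p = 0.0294). Gata4 and Sox17, endoderm factors, lay between 159 and 197 TPM and between 1009 and 1393 TPM in XEN cells and reached at most 0.407 and 1.09 TPM in ESCs. TSC libraries also held Hand1, a factor of differentiating giant cells, between 7234 and 14763 TPM. Replicates were not always nearest to each other across all genes. Neither normoxic library of the TSCs nor of the XEN cells was nearest to its replicate, and the same held for both day 2 libraries of the ESCs. It also held for the second library of ESCs on day 7, of TSCs on day 2 and of XEN cells on day 7. In bulk libraries such as these, fewer cells of a type and less RNA per cell cannot be told apart.

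The promoters of 3 members that fell together in TSCs are shown, with that of Klf2, which had the largest log2 fold change in XEN cells, since hypoxia acts on genes largely through HIF factors bound to a short core sequence near promoters. Of the 10 members, 6 had a RefSeq entry (build GRCm38.p6), with 7 windows because Nanog had 2, and no entry was matched for Klf5, Tbx3, Prdm14 or Dppa3. Each line gives the 250 bases before the start of transcription, 5′ to 3′ on the strand of the gene, and capitals mark the core ACGTG or GCGTG on either strand (as CACGT or CACGC on the other). The windows are chrX:86191525-86191774 (+) for Nr0b1, chr6:122707239-122707488 (+) for Nanog, chr8:43307010-43307259 (-) for Zfp42 and chr8:72318812-72319061 (+) for Klf2.
Nr0b1: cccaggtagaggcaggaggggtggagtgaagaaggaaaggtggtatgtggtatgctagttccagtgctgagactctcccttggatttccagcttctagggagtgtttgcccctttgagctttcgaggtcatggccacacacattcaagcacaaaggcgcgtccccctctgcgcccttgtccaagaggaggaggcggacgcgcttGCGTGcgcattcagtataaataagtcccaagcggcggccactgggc
Nanog: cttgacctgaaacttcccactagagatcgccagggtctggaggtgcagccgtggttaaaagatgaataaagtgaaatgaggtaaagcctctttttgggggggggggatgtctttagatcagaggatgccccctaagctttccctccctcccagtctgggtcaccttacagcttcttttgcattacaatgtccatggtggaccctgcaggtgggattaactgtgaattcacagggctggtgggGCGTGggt
Zfp42: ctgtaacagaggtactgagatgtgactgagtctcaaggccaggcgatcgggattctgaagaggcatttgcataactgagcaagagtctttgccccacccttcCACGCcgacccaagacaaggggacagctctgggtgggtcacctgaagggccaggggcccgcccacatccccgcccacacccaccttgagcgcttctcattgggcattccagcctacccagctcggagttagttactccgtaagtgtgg
Klf2: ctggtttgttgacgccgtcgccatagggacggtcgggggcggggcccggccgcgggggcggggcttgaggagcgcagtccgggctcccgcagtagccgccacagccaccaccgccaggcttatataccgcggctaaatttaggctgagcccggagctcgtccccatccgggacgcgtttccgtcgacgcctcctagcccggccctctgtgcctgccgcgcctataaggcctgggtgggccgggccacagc
The Nr0b1 window held 1 core, first base 46 bases before the start, the Nanog window 1 at 8 bases and the Zfp42 window 1 at 148 bases. The Klf2 window held none. Among the other windows, that of Klf4 held 2 overlapping matches on opposite strands at 182 and 181 bases, and that of Tfcp2l1 held 3 matches to GCGTG. Of all 32851 windows of this length, 38.6% held ACGTG or GCGTG. Neither TCAAGGTCA, the full site of the nuclear receptor ESRRB, nor TTCNNNGAA, the site of STAT factors, occurred in a member's window, against 0.387% and 7.02% of all windows. These are matches of letters, and no binding data were analysed here. In the study's own ESC profiles, HIF1α appeared to act directly on metabolic genes for the most part, and not at promoters of developmental genes.

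On GRCm38, Dppa3 (ENSMUSG00000046323) lies at chr6:122626410-122630272 and Nanog (ENSMUSG00000012396) at chr6:122707489-122714633, both on the + strand and with no overlapping gene in the annotation. Nr0b1 (ENSMUSG00000025056) lies at chrX:86191764-86195947 (+), Zfp42 (ENSMUSG00000051176) at chr8:43295063-43306980 (-) and Klf5 (ENSMUSG00000005148) at chr14:99298691-99315036 (+). Span and exon length differ widely between genes, 11918 against 1881 bases for Zfp42 and 2624 against 1847 bases for Klf2.

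In normoxic ESCs the members spanned more than an order of magnitude. On the scale of TPM with exon length, Zfp42 was highest at 1432 ± 31 (SD, n = 2), followed by Nanog at 868 ± 67, Klf2 at 560 ± 138 and Nr0b1 at 360 ± 10. Klf5 came next at 334, then Klf4 at 258 and Tfcp2l1 at 210, and Tbx3 at 88.7, Dppa3 at 66.8 and Prdm14 at 30.2 were lowest. The 2 libraries of each gene did not overlap those of its neighbours in this order. With the deposited TPM, which penalise genes with long introns, the order began with Klf2, Nanog and Zfp42 instead.

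**Figure D1:**
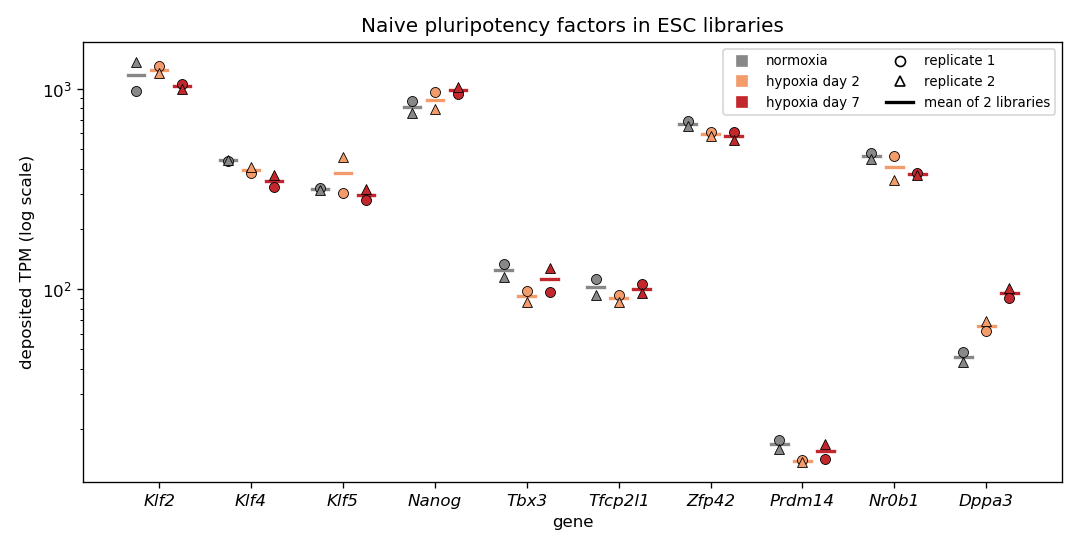
Deposited TPM (log axis) of the 10 genes in the 6 ESC libraries, by condition and replicate, with bars for the mean of 2 libraries. Dppa3 stepped up from 43.2 and 48.6 in normoxia to 90.3 and 102 on day 7, whereas the other 9 genes had log2 fold changes from -0.34 to 0.28 on day 7.

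Among the naive factors of hypoxic ESCs, Dppa3 alone passed the test. Dppa3 (Stella or PGC7) protects maternal DNA methylation in the zygote and marks naive ESCs and germ cells. It was at 48.6 and 43.2 TPM in normoxia, 61.6 and 69.7 on day 2, then 90.3 and 102 on day 7. Each hypoxic library was above both normoxic ones and both day 7 libraries were above both day 2 libraries. On day 7 Dppa3 was 2.08-fold above normoxia (log2 fold change 1.06, SE 0.14, 95% interval 0.74 to 1.37, limma adjusted p = 0.0222). The value on day 2 was 0.51 (SE 0.14, adjusted p = 0.683), and that of day 7 against day 2 was 0.55 (adjusted p = 0.502), neither of which passed. Between 593 and 1659 reads lay behind each Dppa3 value, and the annotation lists 1 pseudogene, Dppa3-ps, that could share reads. The call was lost without either normoxic library or either day 7 library, fits that leave a single library in a group. A limma fit blocked by replicate number gave it an adjusted p of 0.104. Over all settings tried its adjusted p ran from 0.00363 to 0.305.

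In total 0.758% of the 12271 genes tested in ESCs were called on day 7, 0.717% as higher, and 1 of the 10 members was among them. On day 2 the share called was 0% and no member was called, with 620 genes at an unadjusted p under 0.05 and a smallest adjusted p of 0.215. Between day 7 and day 2, 0.179% were called and no member, and libraries of 5 of the 10 did not overlap, against 24% of all genes. On day 7, 5 of the 10 members had normoxic and hypoxic libraries that did not overlap, against 40.5% of all genes, and on day 2 it was 6 of 10 against 30.8%. The median log2 fold change of the 10 was -0.14 on day 7 and -0.16 on day 2, beside 0.02 and 0.01 over all genes.

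The KLF factors are zinc-finger proteins that act redundantly in the naive network, with Klf4 downstream of LIF and STAT3. Klf4 was at 439 and 442 TPM in normoxia, 380 and 409 on day 2, then 326 and 372 on day 7. Its hypoxic libraries were all below its normoxic ones, with a log2 fold change of -0.34 on day 7 (SE 0.13, 95% interval -0.63 to -0.05, adjusted p = 0.516). Klf2 was at 982 and 1358 TPM in normoxia, 1304 and 1199 on day 2, then 1055 and 1005 on day 7, so that its normoxic libraries enclosed all the others. Klf5, which also drives early trophoblast, was at 320 and 312 TPM in normoxia, 302 and 457 on day 2, then 278 and 315 on day 7. One day 2 library of Klf5 stood above the other 5, and the groups overlapped in every comparison.

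Nanog, the homeodomain factor that lets ESCs self-renew without LIF, was at 866 and 755 TPM in normoxia, 967 and 792 on day 2, then 940 and 1028 on day 7. Both day 7 libraries were above both normoxic ones, at a log2 fold change of 0.28 (SE 0.15, 95% interval -0.06 to 0.63, adjusted p = 0.741). Zfp42 (Rex1), a zinc-finger protein lost as cells leave the naive state, was at 692 and 652 TPM in normoxia, 613 and 583 on day 2, then 612 and 553 on day 7. All 4 hypoxic libraries lay below the normoxic ones, with log2 fold changes of -0.17 on day 2 and -0.21 on day 7 (adjusted p = 0.987 and 0.803). For Nanog and Zfp42 the annotation lists 2 and 1 named pseudogenes, which could share reads.

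Tbx3, a T-box factor downstream of LIF, was at 134 and 115 TPM in normoxia, 97.7 and 86.2 on day 2, then 96.7 and 127 on day 7. Its day 2 libraries were both below normoxia (log2 fold change -0.43, SE 0.16, adjusted p = 0.95), and on day 7 the groups overlapped. Its exons overlap those of an antisense gene, Tbx3os1, so its reads may be shared if counting ignored strand. Tfcp2l1, a grainyhead-like factor that joins the LIF and WNT arms, lay between 86.7 and 112 TPM in all 6 libraries, and its exons overlap a small nuclear RNA gene, Gm23497. Prdm14, which holds down FGF signalling and DNA methyltransferases, lay between 13.7 and 17.6 TPM.

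Nr0b1 (Dax1), an orphan nuclear receptor that binds OCT4 and restrains its activity, was at 478 and 447 TPM in normoxic ESCs, 465 and 350 on day 2, then 380 and 372 on day 7. Both day 7 libraries were below both normoxic ones, with a log2 fold change of -0.30 (SE 0.15, 95% interval -0.65 to 0.06, adjusted p = 0.723). Over the 9 members not called on day 7, the log2 fold changes ran from -0.34 to 0.28 and their 95% intervals stayed within -0.65 and 0.63. The intervals of Klf4, Nr0b1 and Nanog reached past a 1.5-fold change, and those of the other 6 stayed within it.

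**Figure D2:**
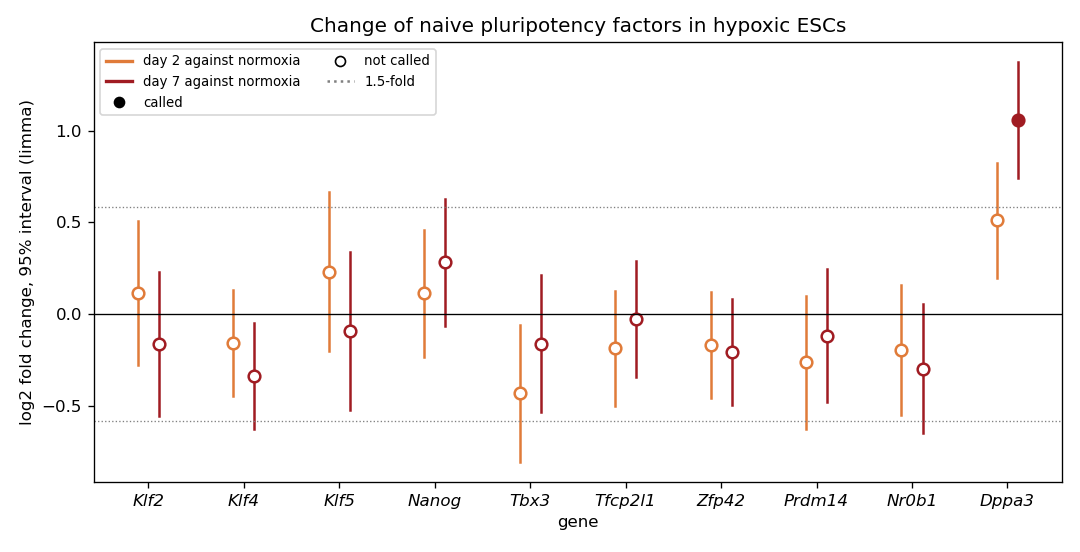
Log2 fold change against normoxia of the 10 genes in ESCs on day 2 and day 7 of hypoxia, with 95% intervals from limma. Filled points passed the call and dotted lines mark a 1.5-fold change; the filled point is Dppa3 on day 7, at 1.06.

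Few genes of the wider pluripotency lists were called in ESCs. None of 18 core factors and partners was called on day 7, 3 of the 18 had a log2 fold change above 0 and their median was -0.10, beside 0.02 over all genes. Pou5f1, Sox2 and Esrrb belong to this list. Of 14 formative and primed genes tested, 1 was called, T (Brachyury), which marks the primitive streak. It was at 17.4 TPM on day 7 against 3.80 in normoxia, with a log2 fold change of 2.05 (SE 0.21, adjusted p = 0.00739). None of 9 genes of LIF to STAT3 signalling, 8 of the WNT to TCF7L1 branch and 10 of the ERK branch was called on either day. For 14 hypoxia genes used as a check, the median log2 fold change was 1.02 on day 2 and 1.08 on day 7, of which 0 and 2 were called. Of the markers of other cells tested in ESCs, 1 of 4 trophoblast differentiation markers and 1 of 4 fibroblast markers were called on day 7. These were Hand1, at 10.5 TPM against 2.12 in normoxia, and Col1a1, at 10.6 TPM against 1.56. The summed fibroblast markers lay between 39.7 and 45.9 TPM in normoxia and between 43.3 and 50.7 on day 7, and none of 9 endoderm markers or 8 trophoblast stem cell markers was called. The trophoblast stem cell markers, which include Sox2 and Esrrb, summed to between 2866 and 3584 TPM in ESCs, mostly Sox2 (2667 to 3437). Their part in the Dppa3 result was not tested.

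The 3 genes whose profile over the 6 ESC libraries was most like that of Dppa3 were Krtdap, Hormad1 and Samd7. After centring each gene, their log2 values differed from those of Dppa3 by a root mean square of 0.071, 0.080 and 0.084, where Dppa3 itself spread by 0.44. They were found among 12270 genes, in libraries that also served for the test of Dppa3.

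TSCs expressed part of the same set at other levels. The tables of the cell types were normalized separately, so levels set across them are descriptions without a test. In normoxic TSCs, on the scale of TPM with exon length, Klf5 was highest at 171 ± 6.6 (SD, n = 2) and Zfp42 second at 103 ± 5.2. Klf4 at 51.5, Klf2 at 49.9 and Tbx3 at 42.0 followed, and Tbx3 overlapped both of the others. Tfcp2l1 was at 22.5, Nr0b1 at 9.36 and Nanog at 1.35. Thus Nanog was the second most abundant member in ESCs and the least abundant of those present in TSCs.

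**Figure D3:**
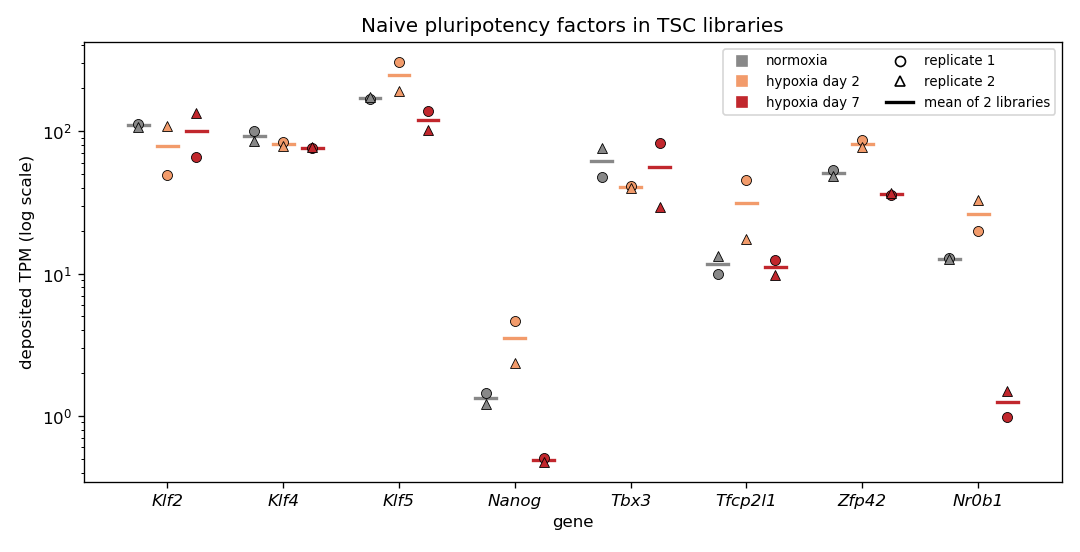
Deposited TPM (log axis) of the 8 genes present in TSCs, in the 6 libraries by condition and replicate, with bars for the mean of 2 libraries. Nr0b1 stood at 0.984 and 1.502 on day 7, below 12.6 and 12.8 in normoxia and 19.98 and 32.6 on day 2.

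In TSCs, 4 of the 8 members present fell between day 2 and day 7, namely Nr0b1, Nanog, Zfp42 and Klf5, and Nr0b1 also fell below normoxia. The other 4 did not pass, and none of the 8 was called on day 2 against normoxia. Over all 12481 genes tested, 16.2% were called between day 7 and day 2, 13.8% as lower. Many of these 2019 calls, or all, were lost without the second day 7, the first day 2 or the first day 7 library. Such a fit has a single library in a group and fewer pairs for its spread. A lost call thus need not come from the library left out. Between day 7 and normoxia 0.385% were called, 0.345% as lower, and between day 2 and normoxia 0.2%. Between day 7 and day 2, 6 of the 8 members had libraries that did not overlap, against 59.3% of all genes. For day 2 against normoxia it was 7 of 8 against 47.4%, and for day 7 against normoxia 5 of 8 against 41.3%. The median log2 fold change of the 8 was -1.09 for day 7 against day 2, beside -0.24 over all genes, and it was -0.38 beside -0.18 for day 7 against normoxia and 0.58 beside 0.07 for day 2. With median-ratio scaling, which brings the median of all genes for day 7 against day 2 to 0.02, the calls split into 738 higher of 1706, against 296 higher of 2019 as deposited.

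Nr0b1 had the largest fold changes among the 8, 7.66-fold lower on day 7 than in normoxia and 15.1-fold lower than on day 2 after adding 0.5 to each TPM. It was at 12.8 and 12.6 TPM in normoxic TSCs, 19.98 and 32.6 on day 2, then 0.984 and 1.502 on day 7, from 182, 194, 333, 542, 16 and 26 reads. The 3 groups did not overlap, with day 2 highest and day 7 lowest. Its log2 fold change was -2.94 on day 7 against normoxia (SE 0.31, 95% interval -3.66 to -2.21, adjusted p = 0.0346) and -3.92 against day 2 (SE 0.31, adjusted p = 0.00631). On day 2 against normoxia it was 0.98 (SE 0.31, adjusted p = 0.284). The day 7 call against normoxia was lost without either day 7 library (adjusted p = 0.305 and 0.393) and with voom on recovered reads (adjusted p = 0.166), and the call against day 2 was lost without the second day 7 library (adjusted p = 0.114). Over all settings the adjusted p ran from 2.76e-08 to 0.393 against normoxia and from 1.73e-13 to 0.114 against day 2.

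Nanog was scarce in TSCs, at 1.44 and 1.22 TPM in normoxia, 4.67 and 2.36 on day 2, then 0.504 and 0.474 on day 7. These values rest on 35, 32, 133, 67, 14 and 14 reads. Its groups did not overlap either, in the same order as for Nr0b1, and it fell by 1.96 on the log2 scale from day 2 to day 7 (SE 0.33, adjusted p = 0.0262). Its day 7 level is about the size of the 0.5 added to each TPM, and the value was -1.55 with 1 added and -2.59 with voom on recovered reads, called in both. Against normoxia the values were 1.07 on day 2 and -0.89 on day 7 (adjusted p = 0.274 and 0.428).

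Zfp42 showed the same order at a higher level, with 53.4 and 48.5 TPM in normoxia, 86.1 and 76.8 on day 2, then 35.5 and 36.8 on day 7. It fell by 1.16 from day 2 to day 7 on the log2 scale (SE 0.18, adjusted p = 0.0211). Against normoxia it was at 0.67 on day 2 and -0.49 on day 7 (adjusted p = 0.23 and 0.407). Replicates of Zfp42 differed by less than its groups did.

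Klf5 was at 168 and 174 TPM in normoxia, 304 and 191 on day 2, then 139 and 102 on day 7. Its day 2 libraries were the most uneven, yet both lay above normoxia and both day 7 libraries lay below it. Between day 2 and day 7 it fell by 1.01 on the log2 scale (SE 0.27, adjusted p = 0.065), and with median-ratio scaling the value was -0.73 (adjusted p = 0.133), which did not pass. The calls of Nanog, Zfp42 and Klf5 were lost without the first day 2 library, without the first day 7 library or without the second (adjusted p up to 0.327 over these fits).

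Tfcp2l1 missed the threshold for day 7 against day 2. It was at 9.90 and 13.4 TPM in normoxia, 45.5 and 17.6 on day 2, then 12.4 and 9.83 on day 7. Both day 2 libraries stood above the other 4, though they were far apart, and the log2 fold change from day 2 to day 7 was -1.32 (SE 0.43, adjusted p = 0.104). Without the first day 2 library the value was -0.65 (adjusted p = 0.434) and without the second -1.996 (adjusted p = 0.0385). It passed in 3 of 11 other settings and in 4 of 7 fits that left out libraries, and over all of them the adjusted p ran from 2.51e-05 to 0.434. Klf4, at 100 and 85.6 TPM in normoxia, 83.6 and 78.5 on day 2, then 76.1 and 76.9 on day 7, was highest in normoxia and not called, with log2 fold changes of -0.19 and -0.27 against normoxia (adjusted p = 0.672 and 0.643).

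Klf2 and Tbx3 spread widely between TSC replicates. Klf2 was at 113 and 108 TPM in normoxia, 49.5 and 109 on day 2, then 65.7 and 135 on day 7. Tbx3 was at 47.7 and 76.5 TPM in normoxia, 41.4 and 39.6 on day 2, then 83.1 and 29.5 on day 7. On day 7 the replicates of each gene differed by more than any of its group means did, and neither gene was called in any of the 3 comparisons.

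**Figure D4:**
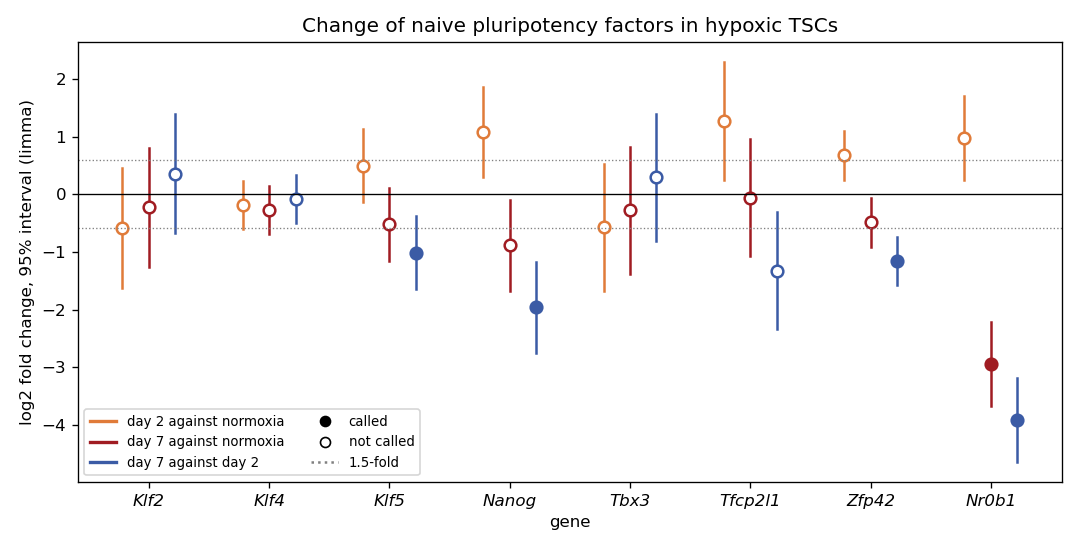
Log2 fold change of the 8 genes present in TSCs, for day 2 and day 7 against normoxia and day 7 against day 2, with 95% intervals from limma. Filled points passed the call: Nr0b1 against normoxia (-2.94) and against day 2 (-3.92), and Nanog (-1.96), Zfp42 (-1.16) and Klf5 (-1.01) against day 2.

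Other lists also had calls in TSCs, where 13.8% of all genes were called lower on day 7 against day 2 and 0.345% against normoxia. The calls of these lists against day 2 were all lost without the second day 7 library, and those of day 7 against normoxia without either day 7 library, since no gene was then called. Of 12 core pluripotency factors and partners tested, 7 were called lower on day 7 against day 2 and none higher, at a median log2 fold change of -1.20 beside -0.24 over all genes. Against normoxia 3 were called lower: Sox2 (-2.20), Lin28a (-1.78) and Esrrb (-1.70). Sox2 and Esrrb also sustain TSCs and are counted in the next list as well. Of 10 trophoblast stem cell markers, 7 were called lower against day 2, and against normoxia 3 were, Sox2, Esrrb and Elf5, of which Elf5 (-1.78) reinforces trophoblast fate. Sox2 alone averaged 687 TPM in normoxia, 1074 on day 2 and 150 on day 7. The summed TPM of this list, Sox2 included, was 1968 and 2033 in the normoxic libraries and 2178 and 2540 on day 2. On day 7 the sum was 1240 and 999. That of the differentiation markers, nearly all Hand1, was between 8664 and 14437 in normoxia, between 7269 and 8601 on day 2 and between 12907 and 14782 on day 7. Of 6 differentiation markers, Prl3d1 (2.15) was called higher and Ascl2 (-1.16) and Gcm1 (-1.38) lower against day 2, and none was called against normoxia. Of 9 endoderm markers, Pdgfra (1.55) was called higher and Gata4 (-1.60) lower against day 2. The share of differentiating cells in the levels of the naive factors was not tested.

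Among the formative and primed genes, 7 of 11 were called lower on day 7 against day 2, with Zic2 (-3.17) the lowest, and 1 was against normoxia, Zic2 (-3.36). Of the signalling lists, LIF to STAT3 had 2 of 9 genes lower against day 2, the kinase genes Pim3 (-1.70) and Pim1 (-1.14). In the ERK branch 1 of 10 was lower, Egr1 (-2.14), which was also lower against normoxia (-1.99). Both of these small counts against day 2 lay near the share of all genes called lower, 13.8%. None of 7 genes of the WNT to TCF7L1 branch was called. Hypoxia genes had 5 of 14 called higher on day 2 (median log2 fold change 1.62) and none on day 7 (median 0.58), and 8 of 14 were called lower on day 7 than on day 2. The 5 calls on day 2 were lost without any one of 4 libraries, both of day 2 and both of day 7, where 0 genes were called. Pdk1, a HIF target, was at 15.0 TPM in normoxia, 85.8 on day 2 and 15.4 on day 7, so that it too was highest on day 2. Its return to the normoxic level was not typical of the list. On day 7, 13 of the 14 hypoxia genes were above normoxia, beside 28.0% of all genes. A fold change over 1.5 was seen in 7 of the 14, beside 15.9% of all genes. The part of these genes in the levels of the naive factors was not tested.

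Feeder cells were another possible source of RNA. All 10 fibroblast markers were in the TSC table, and their summed TPM was 1914 and 289 in the normoxic libraries, 217 and 1006 on day 2, then 474 and 285 on day 7. None of the 9 tested was called in any of the 3 comparisons. The first normoxic library and the second day 2 library held most, and across all genes each was nearest to the other rather than to its own replicate. Without these 2 libraries, the members called lower on day 7 against day 2 were Nr0b1 (-3.57), Nanog (-2.39), Tfcp2l1 (-1.996), Klf5 (-1.35) and Zfp42 (-1.24). Klf2 was called in the other direction, higher on day 7 (0.92). This fit called 3046 of all 12481 genes, against 2019 with all libraries. On day 2 against normoxia 3 were then called, Nanog (1.59) and Tfcp2l1 (1.73) higher and Klf2 (-1.11) lower, and the genes called over the whole table went from 25 to 756. The fit had a single library in normoxia and on day 2, took its spread from the day 7 libraries and assumes that the lone libraries varied like them.

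The genes most like Nr0b1 over the 6 TSC libraries were Insm1, Duox2 and Hs3st3b1, at root mean square differences of 0.17, 0.35 and 0.46 on the log2 scale against its own spread of 1.68. For Nanog they were Gng2, Prkaa2 and Gabarapl1, at 0.043 to 0.11 against 0.84. Those nearest to Klf5 were Ctc1, Calcoco1 and Mdc1, at 0.030 to 0.054 against 0.48, and those nearest to Zfp42 were Grtp1, Ephb3 and Nsl1, at 0.056 to 0.071 against 0.48. All were found among 12480 genes, in libraries that also served for the tests of these members.

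XEN cells held 5 of the members and neither Nanog, Zfp42 nor Nr0b1. In normoxia, on the scale of TPM with exon length, Klf4 was highest at 542 ± 141 (SD, n = 2). Klf5 at 230 and Tbx3 at 135 overlapped each other, as did Tfcp2l1 at 8.23 and Klf2 at 6.81. Klf4 was above its ESC level of 258 on this scale in both libraries. Tbx3 overlapped its ESC level, at 181 and 89.8 in XEN cells and 94.5 and 82.9 in ESCs, whereas Klf2 was far below its ESC level of 560.

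**Figure D5:**
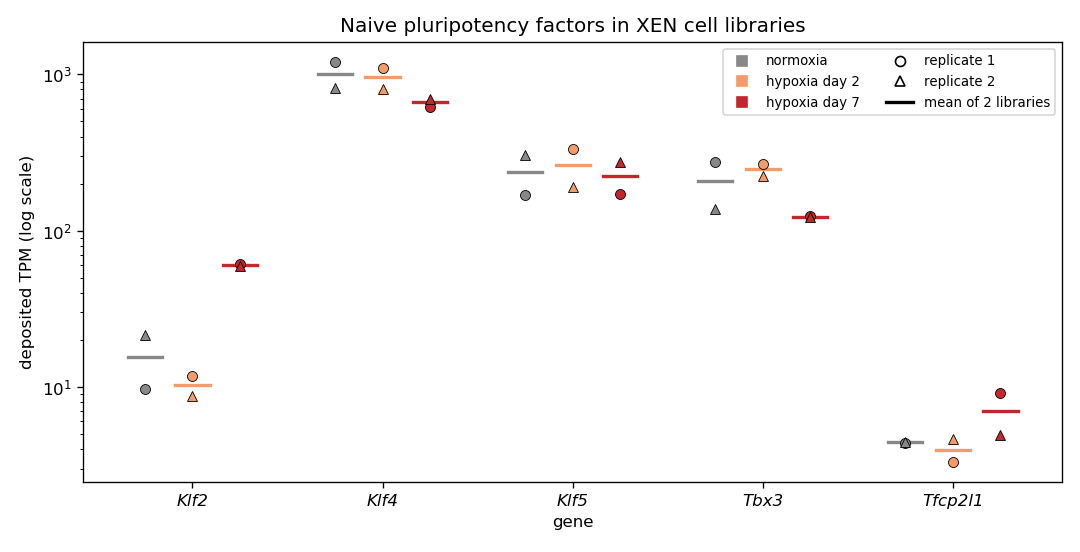
Deposited TPM (log axis) of the 5 genes present in XEN cells, in the 6 libraries by condition and replicate, with bars for the mean of 2 libraries. Klf2 stood at 61.3 and 59.4 on day 7, above 4 libraries between 8.77 and 21.5, but it did not pass the test over all genes.

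No naive factor was called in XEN cells at any time. Over 10894 genes tested the share called was 0% on day 2, with 846 genes at an unadjusted p under 0.05, 0.11% on day 7 and 0.0367% between the days. Libraries of 4 of the 5 members did not overlap between day 7 and normoxia, against 41.3% of all genes, and the same 4 were apart between the days, against 47.7%. Between day 2 and normoxia none of the 5 was apart, against 41%. The median log2 fold change of the 5 was -0.07 on day 7, beside -0.03 over all genes.

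Klf2 had the largest values. It was at 9.63 and 21.5 TPM in normoxia, 11.8 and 8.77 on day 2, then 61.3 and 59.4 on day 7. Both day 7 libraries stood well above the other 4, from 606 and 406 reads against 82 to 299. The log2 fold change was 2.03 against normoxia (SE 0.36, 95% interval 1.18 to 2.87, adjusted p = 0.18) and 2.51 against day 2 (SE 0.36, adjusted p = 0.218). It passed against normoxia without the second normoxic library (2.59, adjusted p = 0.0125), a fit that called 195 genes in all against 12 with all libraries, and against day 2 in a fit to the 4 libraries compared (adjusted p = 0.0095). Over all settings its adjusted p ran from 0.0125 to 0.612 and from 0.00892 to 0.88.

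Klf4 was at 1193 and 821 TPM in normoxic XEN cells, 1103 and 811 on day 2 and 623 and 700 on day 7. Its day 7 libraries were below the other 4, at -0.58 against normoxia (SE 0.24, adjusted p = 0.543). Tbx3 was at 276 and 137 TPM in normoxia, 268 and 225 on day 2, then 124 and 121 on day 7, again lowest on day 7, at -0.66 (SE 0.31, adjusted p = 0.582). Tbx3 passed against normoxia without the second normoxic library (-1.16, in the same fit with 195 calls, adjusted p = 0.0688, with up to 0.999 in other settings).

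Klf5 and Tfcp2l1 were the remaining members of XEN cells. Klf5 ranged from 169 to 333 TPM, and its groups overlapped in every comparison. Tfcp2l1 was at 4.35 and 4.46 TPM in normoxia, 3.30 and 4.63 on day 2, then 9.16 and 4.94 on day 7, with 0.56 on day 7 (SE 0.31, adjusted p = 0.642). Of 10 endoderm markers of the XEN cells none was called on day 7, at a median log2 fold change of 0.03. None of the 13 core factors, 8 formative and primed genes, 9 LIF to STAT3, 6 WNT to TCF7L1 and 8 ERK branch genes tested was called either, and of 12 hypoxia genes 1 was, Egln3. Of the 3 trophoblast stem cell markers and the 1 differentiation marker tested in XEN cells none was called, and no fibroblast marker passed the filter on low values.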

How the data were processed

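Total RNA of mouse ESCs, TSCs and XEN cells was sequenced in normoxia and on day 2 and day 7 of hypoxia, with 2 biological replicates per condition. The authors trimmed, aligned and counted the reads, with cutadapt 2.4, STAR 2.7.5a and featureCounts named in their processing notes (build mm10), removed genes that are not protein-coding or that did not exceed 0.4 CPM in 2 or more of 6 libraries, and deposited TPM in a table per cell type. Since the authors scaled the tables separately, cell types were not tested against each other. All columns were mapped to samples by name.

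Whole reads were recovered from TPM times gene span (98.7% to 98.9% of values per library within 0.05 of a whole number) with the coordinates of GENCODE M21 on GRCm38, and gave the depth and TPM with exon length. Genes that exceeded a TPM of 0.4 in 2 or more libraries were tested with limma 3.58.1 (R 4.3.3) on log2(TPM + 0.5) with a mean-variance trend, over the 6 libraries of a cell type. Calls needed a fold change over 1.5 and an adjusted p (Benjamini-Hochberg) of no more than 0.1. The authors' edgeR test is for counts, not TPM, and was not run, with voom on recovered reads as an alternative. The fit was tested on simulated data first. Figures were drawn with matplotlib 3.10.9 in Python 3.11.15.

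The members and gene lists were chosen with earlier results of these data known. Named beside the 10 members were, per list, at most the 3 largest called changes or up to 3 defining genes, and for each called member the 3 genes nearest in profile. Pdk1, Gata4, Sox17, Cdx2 and Hand1 were named as single markers with their values known. Replicate numbers are in the labels, which do not say what they share. Same-numbered libraries were not treated as pairs in the main fit, since the methods of the study name no block. They correlated between -0.46 and 0.27 in their deviations from group means, which does not settle whether they were paired. Alternatives were pseudocounts of 0.1 and 1, no filter, a filter of TPM above 1, median-ratio scaling, a replicate block, no trend, only the 4 libraries compared, each library left out, voom on recovered reads and TPM with exon length. A block with the day 2 numbers swapped and the TSC fit without 2 libraries rich in fibroblast markers were added after seeing the data. Chromatin binding, protein and single-cell data were not analysed here.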

Additional observations from a re-analysis of the deposited data

Results flagged for a closer look

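Each result here is a gene whose libraries all moved one way in one cell type and all the other way in another. The tables were normalized separately, so the difference itself was not tested in any of them. Each value is a difference between log2 fold changes. How many of all genes meet the same rule was not counted. Libraries that do not overlap are common with 2 per group, at 30.8% of all genes in ESCs and 47.4% in TSCs for day 2 against normoxia.

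For day 2 against normoxia, Tfcp2l1 was lower in both hypoxic ESC libraries (-0.19) and higher in both hypoxic TSC libraries (1.27), a difference of -1.45 (ESCs minus TSCs). Zfp42 did likewise (-0.17 and 0.67, difference -0.84). Day 7 against normoxia gave the opposite order for Nanog, higher in ESCs (0.28) and lower in TSCs (-0.89), a difference of 1.17. None of these 6 changes was called within its own cell type.

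For day 7 against day 2, Klf2 was lower in ESCs (-0.28) and higher in XEN cells (2.51), a difference of -2.79. Tfcp2l1 was higher in ESCs (0.16) and lower in TSCs (-1.32), a difference of 1.49, and it was higher in XEN cells (0.72), which put TSCs 2.04 below XEN cells (-2.04). None of these changes was called within its cell type either. With 2 libraries per group, outlying samples could not be looked for.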

How the results depend on the processing

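With 2 libraries per group, most calls were lost in some fit that left out a library, and each count below is of members called. Such a fit has a single library in a group and fewer pairs for its spread. A lost call thus need not come from the library left out. Leaving out each library in turn gave 0 to 1 for ESCs on day 7 against normoxia (Dppa3), 0 to 1 for TSCs on day 7 against normoxia (Nr0b1), 0 to 6 for TSCs on day 7 against day 2 and 0 to 3 for TSCs on day 2, the 6 and the 3 coming from the TSC fit without 2 libraries. The count was 1, Nr0b1, without the first day 2 or the first day 7 library of TSCs, and 0 without the second day 7 library. In XEN cells it was 0 to 2 on day 7 against normoxia (Klf2 and Tbx3, without the second normoxic library, where 195 genes were called in all) and 0 to 1 against day 2 (Klf2, without either normoxic library). With the replicate block, Dppa3 missed the threshold at 0.104 and the ESC day 7 count was 0. The block ended no other member's call, and with the day 2 numbers swapped the counts were 1 in ESCs and 1 in TSCs on day 7 and 5 in TSCs on day 7 against day 2. With voom on recovered reads Nr0b1 lost its call against normoxia in TSCs, a count of 0, and with only the 4 libraries compared Klf2 gave a count of 1 in XEN cells on day 7 against day 2. For these 3 counts the cause was not tested. Over the remaining settings the TSC count for day 7 against day 2 was 3 to 5, and no other member count moved.

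Counts over all genes moved more. Those for ESCs on day 7 were 18 to 320 against 93 as reported, without leaving out a library, and for TSCs 13 to 220 against 48 on day 7 and 0 to 326 against 25 on day 2. They were 6 to 31 against 22 for ESCs on day 7 against day 2, 1 to 43 against 12 for XEN cells on day 7 and 2 to 37 against 4 for XEN cells on day 7 against day 2, the ESC count on day 2 was 0 to 14 against 0, and that for TSCs on day 7 against day 2 was 1706 to 2778 against 2019. Leaving out libraries gave 0 to 493 for ESCs on day 2, 8 to 322 on day 7 and 0 to 192 between the days. In TSCs it gave 0 to 756, 0 to 390 and 0 to 3046, where the highest of each came from the fit without 2 libraries, and in XEN cells 0 to 61, 1 to 195 and 0 to 83. Median-ratio scaling turned Tfcp2l1 in TSCs on day 7 against normoxia to 0.13 and Klf4 in TSCs on day 7 against day 2 to 0.20, and voom turned them to 0.077 and 0.056. Scaling by the median ratio shifted the median of all genes in these comparisons from -0.18 and -0.24 to -0.0013 and 0.018. Small uncalled log2 fold changes also changed sign when a library was left out. In ESCs, day 2 against normoxia, the ranges were Nanog -0.030 to 0.26, Klf2 -0.12 to 0.35, Klf5 -0.066 to 0.53, Nr0b1 -0.40 to 0.010. For day 7 against normoxia in ESCs they were Klf2 -0.40 to 0.069, Tfcp2l1 -0.15 to 0.10, Tbx3 -0.36 to 0.033, Prdm14 -0.24 to 0.0026. In ESCs, day 7 against day 2, the ranges were Zfp42 -0.11 to 0.034, Nr0b1 -0.31 to 0.10. For day 7 against normoxia in TSCs they were Klf2 -0.74 to 0.29, Tfcp2l1 -0.27 to 0.15, Tbx3 -1.02 to 0.46. In TSCs, day 7 against day 2, the ranges were Klf2 -0.21 to 0.92, Tbx3 -0.45 to 1.03. For day 2 against normoxia in XEN cells they were Klf2 -1.04 to 0.075, Klf4 -0.33 to 0.20, Klf5 -0.28 to 0.57, Tfcp2l1 -0.37 to 0.064, Tbx3 -0.17 to 0.83. In XEN cells, day 7 against normoxia, the ranges were Klf5 -0.50 to 0.35. For day 7 against day 2 in XEN cells they were Klf5 -0.62 to 0.19. Apart from those named, each of the tested log2 fold changes of members kept its sign in all settings. Depth limits Nanog and Nr0b1 in TSCs on day 7, which rest on 14 to 26 reads per library.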
